A study of Mus musculus with 21 samples.

Results

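The 10 genes described here dock and fuse lysosomes with the plasma membrane, and their RNA was followed in rhabdomyosarcomas (RMS), tumors of the skeletal muscle lineage. They were chosen by name for their role in this process, though earlier results of these data were known. They are 10 of the 19505 genes with a symbol on the array. Each had 1 probe set. The 14 NPE tumors came from Neu1+/-/Ptch1+/-/ETV7 TG+/- mice and the 7 PE tumors from Ptch1+/-/ETV7 TG+/- mice, so both groups carried 1 disrupted copy of the hedgehog receptor gene Ptch1 and a transgene of the human transcription factor ETV7, and only NPE mice lacked 1 copy of Neu1. No tumor from mice without these alleles and no normal muscle was measured. The tumors arose without treatment in the trunk or the limbs, and mice of both sexes on a mixed background, FVB/NJ and C57BL/6 among its strains, were used, over a wide span of ages, with NPE and PE mice not always of the same litter. The labels give neither the site of a tumor nor the mouse, its age or its sex.

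Neu1 encodes the lysosomal sialidase, which takes terminal sialic acids off glycoproteins, Lamp1 among them. In lysosomal exocytosis a lysosome is carried to the cell edge by small GTPases, is tethered under the plasma membrane, and fuses with it when calcium rises, so that its enzymes leave the cell and its membrane proteins appear on the surface. Vamp7 on the lysosome pairs with Snap23 and syntaxin 4 (Stx4a) on the plasma membrane, Syt7 senses the calcium, Mcoln1 releases it from the lysosome, and Rab27a and Rab3a act before fusion. Muscle fibres use the same process to reseal torn membranes. The arrays measured RNA of whole tumors and not the protein, its sialic acids or its place in the cell, and in such samples fewer cells of a type and less RNA per cell cannot be told apart.

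Tfeb is the transcription factor that raises lysosomal genes by binding the CLEAR element, whose core is CACGTG. The windows of 250 bases before to 50 bases after the gene start of Lamp1 and Mcoln1 (RefSeq, GRCm38.p6) are printed because both hold several copies of this core. Capitals mark the core and each sequence runs 5′ to 3′ on the plus strand.
Lamp1, chr8:13158911-13159210: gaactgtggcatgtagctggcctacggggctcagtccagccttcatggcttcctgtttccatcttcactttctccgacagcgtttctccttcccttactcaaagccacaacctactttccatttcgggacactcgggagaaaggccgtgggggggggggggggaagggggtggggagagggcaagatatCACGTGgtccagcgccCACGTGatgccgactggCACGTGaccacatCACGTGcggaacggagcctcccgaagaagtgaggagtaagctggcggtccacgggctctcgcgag
Mcoln1, chr8:3500269-3500568: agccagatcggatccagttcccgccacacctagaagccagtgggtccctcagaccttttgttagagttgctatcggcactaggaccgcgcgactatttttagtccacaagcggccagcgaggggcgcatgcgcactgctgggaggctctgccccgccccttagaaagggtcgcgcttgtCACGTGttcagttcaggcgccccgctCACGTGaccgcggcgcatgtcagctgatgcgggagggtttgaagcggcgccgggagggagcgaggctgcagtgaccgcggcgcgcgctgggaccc
The core reads the same on both strands. In the Lamp1 window its 4 copies began 61, 45, 28 and 15 bases before the start, and 8 of 32851 windows in the RefSeq table (0.024%) held 4 or more. In the Mcoln1 window the 2 copies began 71 and 45 bases before the start, and 0.59% of windows held at least 2. The second Mcoln1 copy lies within the longer match TCACGTGA, searched on both strands, which contains the core and was in 0.97% of windows. The core alone was in 2349 windows (7.15%). Of the 10 genes, 8 had an entry in this table, with 12 windows, and Vamp7 and Syt7 had none. Rab27a held 1 copy in 1 of its 2 windows, 246 bases before the start. The windows of Snap23, Stx4a, Rab3a, Cd63 and Tfeb held no copy, nor did that of Neu1. A match is a description of these letters and not a binding site.

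The values are log2 signals, 1 array per tumor, with array medians of 5.32 to 5.41. The number of arrays limits the precision. Each tumor title ends in a number that the labels do not explain. These numbers form 3 ranges, which were taken as possible batches. Numbers 1 to 10 held 8 NPE tumors, numbers 18 to 23 held 1 NPE and 5 PE tumors, and numbers 28 to 35 held 5 NPE and 2 PE tumors. NPE tumors 11 and 12 (r = 0.76 of their deviations from the group mean), PE tumors 6 and 7 (r = 0.53) and NPE tumors 7 and 8 (r = 0.52) resembled each other and may not be independent. NPE tumors 1 and 2 stood apart with mean adipocyte marker signals of 9.72 and 9.48, against a median of 6.56 over NPE and 5.36 over PE tumors. The 10 embryonic myogenic markers include Myod1, Myog and Des, whose proteins were used with morphology to diagnose RMS. All 10 were above the median of the array's background probes on every array. Their mean signal ran from 6.34 (NPE tumor 3) to 10.13 among NPE tumors and from 8.99 to 9.96 among PE tumors. The mean log2 signal of Neu1 was 6.36 (s.d. 0.18) over NPE and 6.62 (s.d. 0.19) over PE tumors, and 11 of 14 NPE tumors lay below every PE tumor. Its limma adjusted p was 0.513 (exact permutation p = 0.00561), and it was above the 95th percentile of the background probes on 2 of 14 NPE and 4 of 7 PE arrays. That percentile was 6.17 to 7.30, above the array medians, so most tested probe sets lay below it too. The sources used here do not say if its probes fall where the allele was broken, so this value checks the labels only in part.

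To ask whether the genes of lysosomal exocytosis differed in RNA level between NPE and PE tumors, each was compared over all 21 tumors with limma, 2-sided, with p-values adjusted over 22206 probe sets by the Benjamini-Hochberg method. None of the 10 genes passed an adjusted p of 0.05, a threshold that 2 probe sets passed in the whole table (0.00901%). One gene, Rab27a, had an unadjusted p under 0.05, against 8.41% of all probe sets. The differences of the other 9 genes were at most 0.15 log2 units in size. Of the 10 genes, 7 were higher in NPE tumors, against 49.8% of probe sets. The median log2 fold change was 0.014 and the median size 0.076, beside -0.001 and 0.094 over all 19505 genes.

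**Figure D1:**
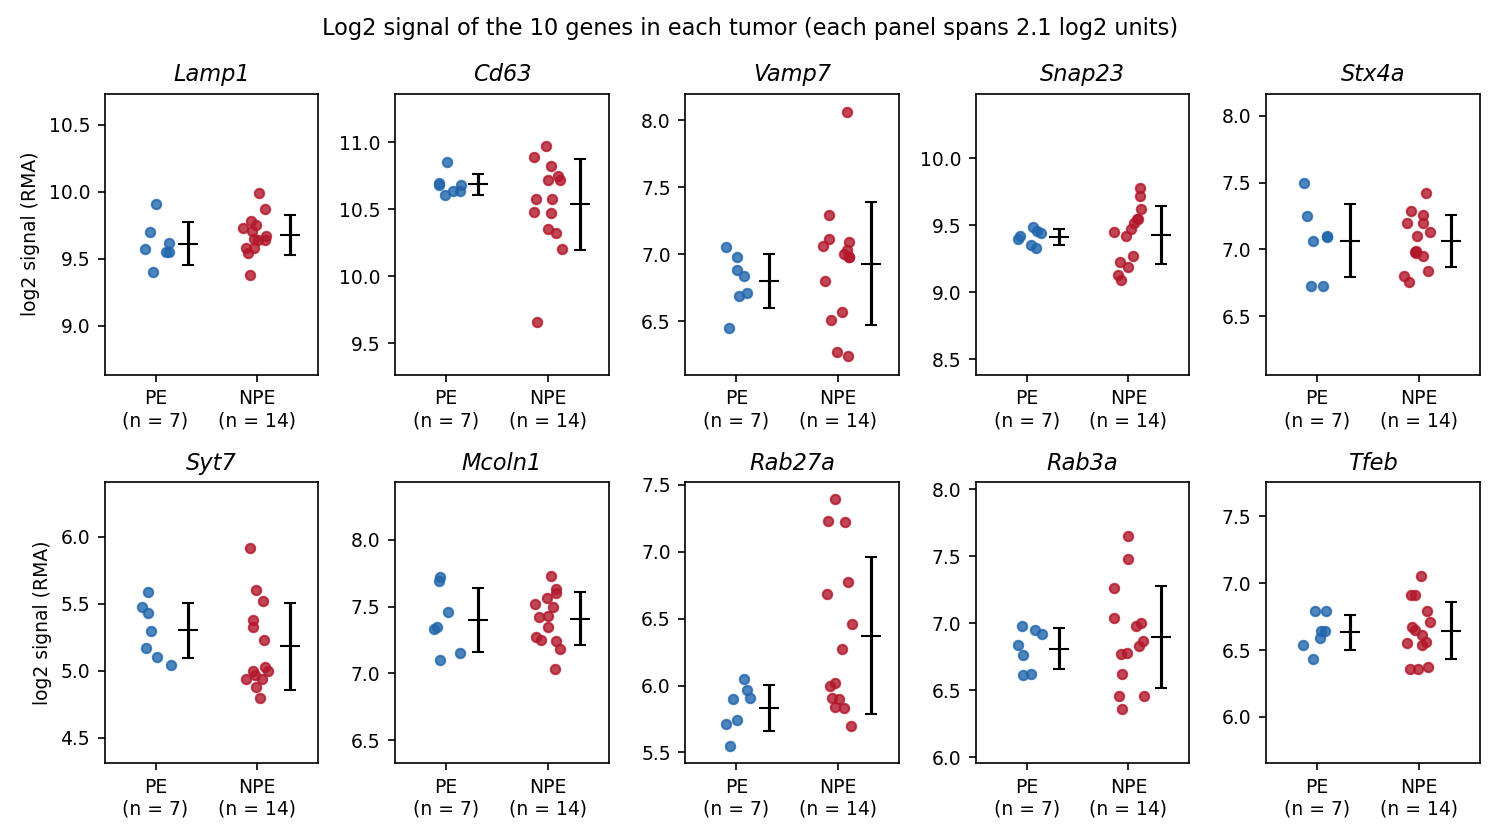
Log2 signal of each of the 10 genes in the 7 PE tumors (blue) and the 14 NPE tumors (red), with the mean ± s.d. of the group beside the points. Every panel spans the same number of log2 units, and 7 NPE tumors lie above all PE tumors for Rab27a while the Cd63 and Snap23 points of PE tumors lie close together.

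Among the lysosomal membrane proteins, Lamp1, a heavily glycosylated protein of that membrane and a substrate of Neu1, had log2 signals of 9.38, 9.66 and 9.99 (lowest, median, highest) in NPE and 9.40, 9.57 and 9.91 in PE tumors. The groups overlapped almost entirely, with 12 of 14 NPE tumors inside the PE range. The log2 fold change was 0.06 (95% interval -0.10 to 0.23, adjusted p = 0.870 from limma). It was 0.10 (standard error 0.12) with the title number ranges as a block, 0.21 (standard error 0.13) among numbers 28 to 35 and 0.113 without PE tumor 1. Without PE tumor 6 it was 0.027, and among numbers 18 to 23, which hold 1 NPE tumor, it was -0.095. With the mean of the adult muscle fibre or the adipocyte markers as a covariate it was 0.018 and -0.025. Few genes varied so little between tumors, since the residual s.d. of Lamp1 of 0.15 was at percentile 5.5 of all genes.

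Cd63 is a tetraspanin of late endosomes, lysosomes and exosomes. Its log2 signal was 9.66, 10.58 and 10.97 (lowest, median, highest) in NPE and 10.61, 10.68 and 10.85 in PE tumors. PE tumors were tightly grouped, and of the NPE tumors 8 lay below every PE tumor and 2 above. The log2 fold change was -0.15 (95% interval -0.41 to 0.12, adjusted p = 0.791 from limma). NPE tumors 1 and 2 had the lowest values, 9.66 and 10.20, and without both the log2 fold change was -0.047, and without tumor 1 alone -0.081.

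Vamp7, the SNARE of the lysosomal membrane, ranged from 6.24 over a median of 6.99 to 8.06 in NPE and from 6.45 over 6.84 to 7.05 in PE tumors. NPE tumor 3 was highest at 8.06, and the next was NPE tumor 6 at 7.29. The log2 fold change was 0.13 (95% interval -0.23 to 0.49, adjusted p = 0.884 from limma), and it was -0.034 with the title number ranges as a block. Leaving out NPE tumor 3 gave 0.041. Snap23, the widely expressed relative of the neuronal SNARE Snap25, ran from 9.09 over 9.46 to 9.78 in NPE and only from 9.33 over 9.42 to 9.49 in PE tumors. The group means were nearly equal (log2 fold change 0.02, 95% interval -0.17 to 0.20), although 6 NPE tumors lay above and 5 below every PE tumor. Stx4a, the plasma membrane syntaxin, had log2 signals of 6.76, 7.05 and 7.42 in NPE and 6.73, 7.09 and 7.50 in PE tumors. All 14 NPE values were inside the PE range, and the log2 fold change was 0.00 (95% interval -0.22 to 0.22).

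Syt7, the synaptotagmin that couples calcium to lysosome fusion, had log2 signals of 4.80, 5.01 and 5.92 in NPE and 5.04, 5.30 and 5.59 in PE tumors. It was below the 95th percentile of the background probes on all 21 arrays, and 2.01 to 2.85 log2 units above their median. Of the NPE tumors 8 lay below and 2 above every PE tumor, and the log2 fold change was -0.12 (95% interval -0.39 to 0.15, adjusted p = 0.853 from limma). Fitted with the title ranges as a block it was -0.32, with -0.39 among numbers 28 to 35 and -0.23 with the mean of the adipocyte markers as a covariate, none past an adjusted p of 0.05. Mcoln1, the calcium channel of the lysosomal membrane, had log2 signals of 7.03, 7.42 and 7.73 in NPE and 7.10, 7.35 and 7.72 in PE tumors. The groups overlapped, with 12 of 14 NPE tumors in the PE range, and the log2 fold change was 0.01 (95% interval -0.20 to 0.22).

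Rab27a, the small GTPase that tethers lysosome-related organelles and exosome-bearing endosomes at the plasma membrane, had the largest difference of the 10 genes. Its log2 signal was 5.70, 6.15 and 7.39 (lowest, median, highest) in NPE and 5.55, 5.90 and 6.05 in PE tumors. In NPE tumors 2, 3 and 4 it was 7.22, 7.23 and 7.39. Values above every PE tumor were found in 7 of 14 NPE tumors and values below every PE tumor in 0, so the other 7 were inside the PE range. The log2 fold change was 0.54 (standard error 0.21, 95% interval 0.10 to 0.98). The unadjusted p was 0.0195 and the exact permutation p 0.0277, but the adjusted p from limma was 0.530, and the gene did not pass the test. The 7 high tumors were 5 of the 8 with title numbers 1 to 10, where no PE tumor lies, and 2 of the 5 with numbers 28 to 35. With the ranges as a block the log2 fold change was 0.35 (adjusted p = 0.824), it was 0.575 among numbers 28 to 35 (adjusted p = 0.549), and it was -0.033 among numbers 18 to 23, which hold 1 NPE tumor. The adipocyte markers, 9 of 9 of which were higher in NPE tumors (median log2 fold change 1.05), had a mean signal of 4.91 to 9.72 among NPE and 4.64 to 6.68 among PE tumors. With this mean as a covariate the log2 fold change of Rab27a was 0.23 (adjusted p of 1 from limma). Without NPE tumors 1 and 2 it was 0.44 (adjusted p = 0.738). The Rab27a signal was above the 95th percentile of the background probes on 5 of 14 NPE and 0 of 7 PE arrays. That percentile lies above the array medians, so most tested probe sets fall below it too. Rab27a was 2.66 to 4.66 log2 units above the background median. Its lowest signal, 5.55, was above the highest array median, 5.41. No fold is given.

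Rab3a, the other GTPase, which is best known from synaptic vesicles, had log2 signals of 6.36, 6.85 and 7.65 in NPE and 6.61, 6.84 and 6.98 in PE tumors. The medians were nearly the same, with 5 NPE tumors above and 3 below every PE tumor. The log2 fold change was 0.09 (95% interval -0.21 to 0.39, adjusted p = 0.909 from limma), and it was 0.030 without NPE tumor 3 and 0.009 without NPE tumors 1 and 2. Tfeb had log2 signals of 6.36, 6.63 and 7.05 in NPE and 6.43, 6.64 and 6.79 in PE tumors, with 3 NPE tumors above and 3 below the PE range. Its log2 fold change was 0.01 (95% interval -0.18 to 0.21). Tfeb is controlled largely by phosphorylation and by its entry into the nucleus, which arrays do not measure. Tfeb lies on the chromosome of Neu1, 12.8 Mb from it.

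**Figure D2:**
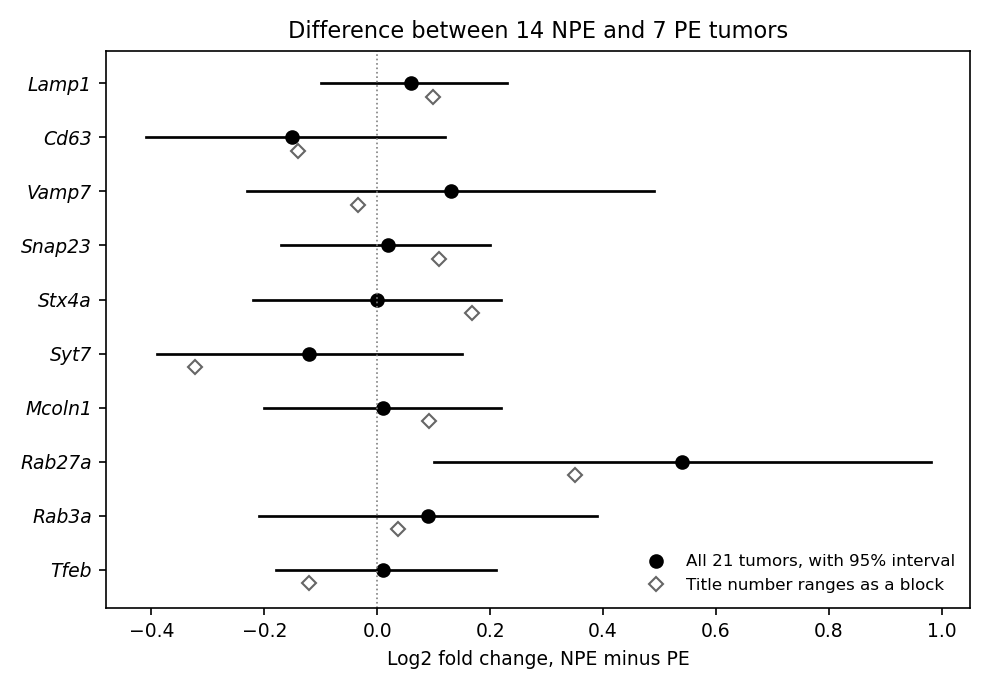
Log2 fold change, NPE minus PE, of each gene with its 95% interval over all 21 tumors (filled circles) and the value with the title number ranges as a block (open diamonds). Only the interval of Rab27a lies above 0, and its value with the ranges as a block is 0.35.

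Several of the genes were spread more widely among NPE than among PE tumors. The s.d. among NPE tumors was more than 2 times that among PE tumors for 5 of the 10 genes, Cd63 (0.34 against 0.08), Snap23 (0.22 against 0.06), Rab27a (0.59 against 0.17), Rab3a (0.38 against 0.15) and Vamp7 (0.46 against 0.20), while 19.1% of all genes had such a ratio. It was larger among NPE tumors for 7 of the 10 genes and for 75.8% of all genes, so a wider spread in NPE tumors was common in the whole table. Lamp1, Mcoln1 and Stx4a had ratios of 0.92, 0.81 and 0.72. To test the spread, the absolute deviations of the tumors from their group mean were compared with limma over all probe sets. None of the 10 genes passed an adjusted p of 0.05 (0.0180% of probe sets did). At an unadjusted p of 0.05 the deviation was larger in NPE tumors for Rab27a (p = 0.00192, adjusted p = 0.368), Snap23 (p = 0.0138, adjusted p = 0.481) and Cd63 (p = 0.0251, adjusted p = 0.514), against 7.46% of probe sets in that direction. Without NPE tumors 1 and 2 the limma p was 0.0118 for Rab27a, 0.0529 for Snap23 and 0.0157 for Cd63, and with the ranges as a block it was 0.0462, 0.0451 and 0.288. That block does not take a shift in level between ranges out of the spread, because the deviations were still from the mean of the whole group. Within title numbers 1 to 10 the s.d. of Rab27a among 8 NPE tumors was 0.60, and within numbers 28 to 35 it was 0.63 among 5. For Cd63 these were 0.38 and 0.21, and for Snap23 0.22 and 0.21.

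**Figure D3:**
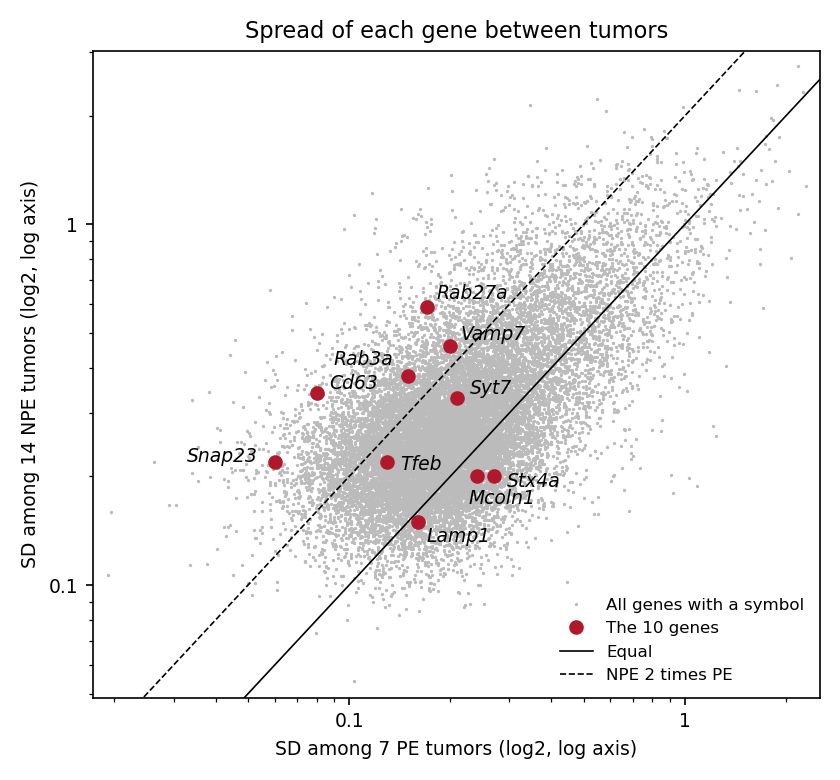
Standard deviation of each gene among the 14 NPE tumors against that among the 7 PE tumors, both log2 on log axes, for all genes with a symbol (grey) and the 10 genes (red). Cd63, Snap23, Rab27a, Rab3a and Vamp7 lie above the dashed line of a ratio of 2, and Lamp1, Stx4a and Mcoln1 lie below the line of equal spread.

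Whether the genes varied together among tumors was tested over 45 pairs, with the group mean removed, by permutation within groups and adjusted over the pairs. Rab27a was higher where Lamp1 was higher (r = 0.70, adjusted permutation p = 0.0009, and rho = 0.73, adjusted permutation p = 0.00383, n = 21). The r was 0.68 without NPE tumor 2 and PE tumor 1, the 2 tumors farthest from the Lamp1 median. It was 0.77 within NPE and 0.82 within PE tumors, and 0.70 and 0.91 within numbers 1 to 10 and 28 to 35. In NPE tumors 2, 3 and 4, where Rab27a was highest, Lamp1 was 9.99, 9.73 and 9.87. Syt7 and Stx4a ran in opposite directions (r = -0.78 and rho = -0.85, each with an adjusted permutation p of 0.00045, n = 21), from the smallest p the permutations can give (1e-05). Their r was -0.83 without NPE tumors 1 and 8, farthest from the Syt7 median, -0.82 within NPE, -0.87 within PE tumors and -0.89 within each of these ranges. Both genes also moved with the background median of the array. Over 10 such relations, Syt7 rose with it (r = 0.66, adjusted permutation p = 0.0145, and rho = 0.62, adjusted permutation p = 0.0277), Tfeb did too (r = 0.72, adjusted permutation p = 0.005, and rho = 0.61, adjusted permutation p = 0.0277) and Stx4a fell (r = -0.52, adjusted permutation p = 0.0311, and rho = -0.57, adjusted permutation p = 0.0277). Without NPE tumors 1 and 5, whose background was highest, these r were 0.59, 0.50 and -0.52. Mcoln1 and Lamp1 passed by rho only (rho = -0.52 and -0.51, adjusted permutation p = 0.0418 and 0.0419, and r = -0.46 and -0.37, adjusted permutation p = 0.0765 and 0.200). With the background median regressed out of both, the r of Syt7 and Stx4a was -0.69, and that of Lamp1 and Rab27a was 0.69.

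The fusion partners Vamp7 and Snap23 had an r of 0.69 (adjusted permutation p = 0.0303) but a rho of 0.45 (adjusted permutation p = 0.342, n = 21), and without NPE tumors 1 and 3 the r was 0.47. Its r was 0.75 within NPE and -0.46 within PE tumors, and 0.86 and 0.75 within numbers 1 to 10 and 28 to 35. The other 42 pairs did not pass by r. Tfeb had r of -0.42 with Lamp1 and Mcoln1 (adjusted permutation p = 0.310 for both) and -0.44 with Rab27a (adjusted permutation p = 0.369). These genes hold the core motif described above. The background of the array, with which Tfeb rose and Lamp1 and Mcoln1 fell by rho, was not regressed out here.

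**Figure D4:**
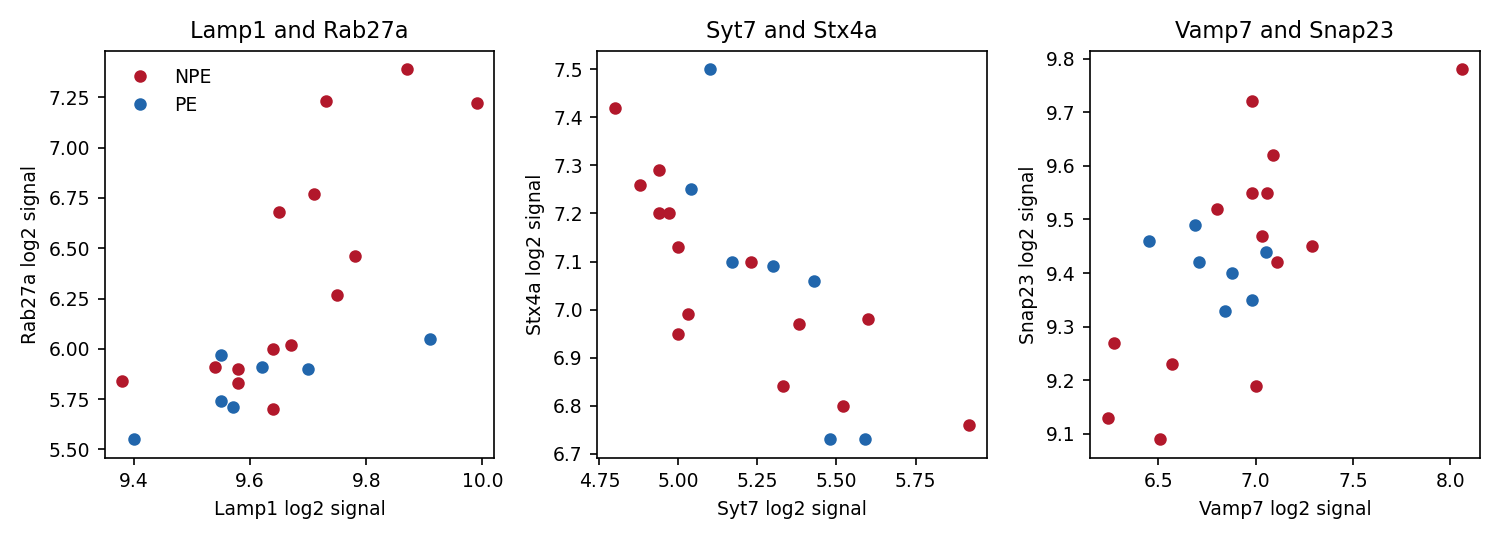
Log2 signal of pairs of genes in the 14 NPE (red) and 7 PE (blue) tumors, 1 point per tumor. NPE tumors 2, 3 and 4 lie at the upper right for Lamp1 (9.73 to 9.99) and Rab27a (7.22 to 7.39), Stx4a is lower where Syt7 is higher, and NPE tumor 3 is the point farthest to the upper right for Vamp7 and Snap23.

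Because the process is proposed to follow the level of Neu1, each gene was related to Neu1 within NPE and within PE tumors, in 20 relations. In PE tumors Vamp7 was lower where Neu1 was higher (r = -0.94, exact permutation p = 0.000992, adjusted p = 0.0198, n = 7), with a rho of -0.96 whose adjusted exact p was 0.0556. The r was -0.91 without the 2 tumors farthest from the Neu1 median and -0.92 in the 5 PE tumors of numbers 18 to 23. Signals were above the 95th percentile of the background probes in 4 of 7 PE tumors for Neu1 and 5 for Vamp7. Among PE tumors Neu1 spanned 0.50 and Vamp7 0.60 log2 units. In NPE tumors the r of Vamp7 and Neu1 was -0.17 (adjusted permutation p = 0.793), and the difference between the groups was not tested. Lamp1 had an r of -0.53 with Neu1 in NPE tumors (adjusted permutation p = 0.520) and a rho of -0.28 (adjusted permutation p = 0.808). No other relation of this family passed by r.

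The genes were also set beside marker lists of the cells that a tumor can hold, in 120 relations over 21 tumors with the group mean removed, of which 11 passed an adjusted p of 0.05 by r and 8 by rho. Vamp7 rose with the macrophage markers (r = 0.76, adjusted permutation p = 0.033, and rho = 0.62, adjusted permutation p = 0.0686), with r of 0.80 and 0.95 within numbers 1 to 10 and 28 to 35. Without the 2 tumors farthest from the median of the list, NPE tumors 4 and 11, the r was also 0.76. NPE tumor 3, highest in Vamp7, was kept in. Lamp1 rose with endothelial markers (r = 0.63 and rho = 0.75, adjusted permutation p = 0.0393 and 0.018) and adipocyte markers (r = 0.62 and rho = 0.75, adjusted permutation p = 0.0393 and 0.018). Rab27a rose with endothelial markers (r = 0.64, adjusted permutation p = 0.0393, and rho = 0.63, adjusted permutation p = 0.0656) and fell with embryonic myogenic markers (r = -0.65 and rho = -0.69, adjusted permutation p = 0.0393 and 0.0405). In the order given, these 4 r were 0.63, 0.72, 0.55 and -0.62 without the 2 tumors farthest from the median of the list. They were 0.34, 0.59, 0.62 and -0.65 within numbers 1 to 10 and 0.88, 0.92, 0.72 and -0.90 within numbers 28 to 35. Within PE tumors alone they were 0.91, 0.67, 0.80 and 0.19, and the r of Rab27a and the embryonic myogenic markers was -0.69 within NPE tumors. All 7 endothelial markers were higher in NPE tumors (median log2 fold change 0.29, none with an adjusted p under 0.05 from limma), and their mean signal ran from 6.19 to 8.13 among NPE and from 6.13 to 7.29 among PE tumors. For Rab27a and adipocyte markers r was 0.66 (adjusted permutation p = 0.0537) and rho 0.70 (adjusted permutation p = 0.0405). Cd63 fell where adult muscle fibre markers were high (r = -0.67 and rho = -0.65, adjusted permutation p = 0.033 and 0.0405), but its r, -0.59 without the 2 farthest tumors and -0.82 within numbers 1 to 10, was 0.14 within numbers 28 to 35. With adipocyte markers Cd63 had an r of -0.73 (adjusted permutation p = 0.033) but a rho of -0.44 (adjusted permutation p = 0.263), and the r was -0.39 without NPE tumors 1 and 2, -0.77 and -0.84 within numbers 1 to 10 and 28 to 35, and -0.43 within PE tumors. Mcoln1 rose with adult muscle fibre markers (r = 0.66, adjusted permutation p = 0.033, and rho = 0.59, adjusted permutation p = 0.0686), with an r of 0.55 without the 2 farthest tumors and of 0.95 and 0.31 within numbers 1 to 10 and 28 to 35. With the fibre markers as a covariate the log2 fold change of Cd63 between the groups was 0.017 in place of -0.15. Rab27a and Rab3a rose with cytotoxic T and NK cell markers (r = 0.61 and 0.56, adjusted permutation p = 0.033 and 0.0393, and rho = 0.53 and 0.64, adjusted permutation p = 0.0889 and 0.0405), and the r was 0.60 and 0.54 without the 2 farthest tumors. For Rab27a the r was 0.84 within NPE and -0.08 within PE tumors. All 8 of these markers had means below the 95th percentile of the background probes. So did 7 of 9 adipocyte, 5 of 10 macrophage, 3 of 7 endothelial, 1 of 10 adult muscle fibre and 0 of 10 embryonic myogenic markers. The part of these cells in the values was not tested.

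Genes most like each member were taken by r over 21 tumors with the group mean removed. Rab27a was closest to Slc16a7, a monocarboxylate transporter (r = 0.91), Gstt3, a glutathione transferase (r = 0.91), and Erap1, an aminopeptidase that trims peptides for MHC class I (r = 0.89). Lamp1 was closest to Parp9 (r = 0.86), Ccpg1 (r = 0.81) and Adar (r = 0.80). Cd63 was closest to Lima1 (r = 0.93), Pabpc1 (r = 0.90) and Taf2 (r = 0.89). Vamp7 was closest to Yipf5, Sh3bgrl and Emp3 (r = 0.87 each), Snap23 to Chsy3, Snx18 and Eng, and Tfeb to Slc12a3, Lin7b and Ap5z1. For Syt7 the 3 were Zfp653, Magea1 and Itprid1, for Stx4a Serpinb1a, B4galt6 and Rras2, for Rab3a Ap4s1, Slc31a2 and Gab1, and for Mcoln1 Sfmbt1, Map2k5 and Wdr41.

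The wider pathway was read from 11 lists with 157 measured genes, of which 86 were higher and 71 lower in NPE tumors. None passed an adjusted p of 0.05, and 14 (8.9%) had an unadjusted p under 0.05, beside 8.7% of all genes. Among 23 other exocytic SNAREs and partners, 13 were higher and 10 lower. Vti1b, an endosomal SNARE that pairs with syntaxins 7 and 8, was 7.20, 7.33 and 7.59 (lowest, median, highest) in NPE and 6.77, 7.15 and 7.23 in PE tumors. Of the NPE tumors 11 lay above every PE tumor. The log2 fold change was 0.27 ± 0.07 (standard error), with a limma p of 0.00105 and a limma adjusted p of 0.392. The exact permutation p of 4.3e-05 was not adjusted, and Vti1b was named for its small p. The log2 fold change was 0.23 with the title number ranges as a block and 0.24 with the adipocyte markers as a covariate. Among numbers 18 to 23, which hold 1 NPE tumor, it was 0.12. Vamp5, a muscle SNARE, had a log2 fold change of 0.19 (adjusted p = 0.580, and 0.066 with the ranges as a block), and Stx1a of the synapse one of -0.18 (adjusted p = 0.525, and -0.12 with that block).

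Among 15 other synaptotagmins and calcium sensors, 7 were higher and 8 lower. Syt4, whose first C2 domain lacks a residue that binds calcium, had log2 signals of 3.70, 4.08 and 4.73 in NPE and 3.46, 3.56 and 3.80 in PE tumors, and 12 of 14 NPE tumors lay above every PE tumor. Its difference was 0.50 ± 0.12 (standard error) with a limma adjusted p of 0.349, and 0.20 with the ranges as a block. Every Syt4 value was below the 95th percentile of the background probes. Of 18 relatives and controllers of Tfeb, 14 were higher and the median of their log2 fold changes was 0.07. They included Mitf, the melanocyte factor of the same family (0.44, adjusted p = 0.513, and 0.62 with the ranges as a block), and Ppargc1a, a coactivator of mitochondrial genes (1.04, adjusted p = 0.568, and 0.12 with the adipocyte markers as a covariate). In 27 relatives and effectors of Rab27 and Rab3, 15 were higher, and Rab38, a GTPase of lysosome-related organelles, had a log2 fold change of 0.53 (adjusted p = 0.587), but -0.39 among numbers 18 to 23 and 0.015 with the ranges as a block. In 19 lysosome positioning genes, 12 were higher, and the smooth muscle myosin Myh11 had 1.12 (adjusted p = 0.579), but 0.021 with that block, -0.76 among numbers 18 to 23 and 0.45 with the adipocyte markers as a covariate.

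Of 10 other lysosomal membrane proteins and tetraspanins, 6 were higher, with Scarb2, the lysosomal receptor of glucocerebrosidase, at a log2 fold change of 0.23 (adjusted p = 0.540), Tspan4 at -0.37 (adjusted p = 0.530) and Cd82 at -0.27 (adjusted p = 0.544). Of 12 genes of lysosomal calcium release, 8 were higher, and Mcoln3, a relative of Mcoln1, had a log2 fold change of -0.26 (adjusted p = 0.544). Membrane repair genes were lower in 8 of 11, with a median log2 fold change of -0.19 and Anxa6, an annexin of the repair cap, also at -0.19 (adjusted p = 0.556, and -0.12 with the ranges as a block). Exosome release genes were lower in 7 of 10 (median -0.06) and exocyst subunits in 5 of 9 (median -0.03), and none of these 19 had an unadjusted p under 0.05. Of the enzymes whose release serves as a readout of exocytosis, Hexa had a log2 fold change of 0.07 (adjusted p = 0.888), and Ctsa, the carrier of Neu1 in the lysosome, had -0.11 (adjusted p = 0.845). Some listed genes were not analysed here.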

How the data were processed

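Groups were taken from the tumor labels. The authors deposited log2 signals of Clariom S Mouse arrays, made by RMA (background correction, quantile normalization and summary of probes), for which the labels name Affymetrix Expression Console 1.1 and the methods also Partek. They name different labeling kits. Of 28846 probe sets, 94 controls and 6546 with names that begin with MG- were left out, and 22206 were tested without further scaling. GEO's array annotation, which can be old, gave 1 symbol for 19572. Of several probe sets of a gene the one with the highest mean was taken. The group difference was fitted by limma 3.58.1 (lmFit, then eBayes, R 4.3.3) without covariates, and single values by an exact permutation test over 116280 splits. P-values measure the spread between these tumors. Relations used 100000 permutations within groups, or all 5040 orders of PE tumors. Absolute deviations for the test of spread were scaled for group size, and this test was added after the values had been seen, as was the relation to array background. Fits were tested on simulated data. Promoter windows came from RefSeq, GRCm38.p6.

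The members, the lists and the tests were chosen with earlier results of these data known. The genes named are the 10 members, Neu1, up to 4 genes with the smallest unadjusted p under 0.05 in each pathway list, and the 3 genes most like each member. The marker lists cover macrophages, adipocytes, adult muscle fibres, embryonic myogenic cells, neuronal, Schwann, melanocyte, mast, cytotoxic T and NK cells, neutrophils, endothelium and Y-linked genes. Alternatives changed the test, the array weights, the probe sets tested, the normalization, blocks, covariates and tumors. The pairing by tumor number was checked, and the numbers do not pair the tumors. Fold changes are differences of log2 values, NPE minus PE. Python 3.11.15 and matplotlib 3.10.9 made the figures.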

Additional observations from a re-analysis of the deposited data

Results flagged for a closer look

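Of 11 sets of PE values tested for a value far from the others (the 10 genes and Neu1 in 7 tumors), 1 stood out. The Cd63 log2 signal of PE tumor 6 was 10.85, the next highest was 10.70, and the gap was 0.64 of the whole range, above the critical value of 0.568. Chance gives about 1 such value in 20 groups. NPE values were not tested in this way because that group holds more than 10 tumors.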

How the results depend on the processing

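No alternative brought any of the 10 genes past an adjusted p of 0.05. Rab27a no longer had an unadjusted p under 0.05, so that 0 of the 10 genes did, with the title number range as a block, among numbers 18 to 23 only, and with the mean of the Y-linked, adipocyte or adult muscle fibre markers as a covariate, and the cause was not tested. Among numbers 28 to 35 only, Stx4a alone had one. The number of probe sets called, 2 in the main comparison, was 1 with array weights, the methods' t-test, each of these 3 covariates, 3 pairs of tumors averaged and NPE tumors 1 and 2 left out, and 14 with the ranges as a block. It was 4 in the tumors numbered 18 to 23 and 355 in those numbered 28 to 35. It was 1 to 3 with single tumors left out.

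The tumor numbers do not pair the tumors (r of the deviations of same-numbered tumors -0.32 to 0.13, 0 of 7 best with their own number). With the number as a replicate block over tumors 1 to 7, 243 probe sets were called and the log2 fold change of Rab27a was 0.93 (adjusted p = 0.0718). Of the 14 pathway genes with an unadjusted p under 0.05, Myh11 passed there (log2 fold change 2.26, adjusted p = 0.0236).

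The sign turned for these log2 fold changes. Among numbers 18 to 23 it was -0.095 for Lamp1, -0.033 for Rab27a, -0.015 for Mcoln1 and -0.054 for Tfeb. Among numbers 28 to 35 it was -0.192 for Vamp7, 0.411 for Stx4a, -0.044 for Rab3a and -0.158 for Tfeb. With the ranges as a block it was -0.034 for Vamp7, 0.168 for Stx4a and -0.120 for Tfeb, and with the replicate block -0.025 for Tfeb. With the adipocyte covariate it was -0.025 for Lamp1, 0.055 for Stx4a, -0.046 for Rab3a, 0.046 for Cd63 and -0.056 for Mcoln1. With the fibre covariate it was 0.017 for Cd63 and -0.113 for Mcoln1, with the Y-linked covariate -0.025 for Vamp7, -0.043 for Snap23 and 0.029 for Stx4a, and with the macrophage covariate 0.006 for Stx4a. With array weights it was 0.009 for Stx4a and -0.020 for Tfeb, with quantile normalization repeated 0.003 for Stx4a, and with arrays centred -0.006 for Mcoln1 and -0.001 for Tfeb. With pairs averaged it was -0.004 for Mcoln1, and without NPE tumors 1 and 2 it was 0.031 for Stx4a and -0.026 for Mcoln1. With single tumors left out it was -0.012 to 0.041 for Snap23, -0.057 to 0.072 for Stx4a, -0.042 to 0.062 for Mcoln1, -0.020 to 0.040 for Tfeb and, with no change of sign, 0.461 to 0.591 for Rab27a, 0.041 to 0.181 for Vamp7, 0.030 to 0.129 for Rab3a, 0.027 to 0.113 for Lamp1, -0.182 to -0.081 for Cd63 and -0.176 to -0.071 for Syt7. The lowest instead of the highest probe set gave no value, because each gene has 1 probe set. The spread differences kept their direction for the 10 genes under both alternatives, which were added after seeing the data.

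Syt7, Tfeb, Rab27a and Neu1 were above the 95th percentile of the background probes on 0, 5, 5 and 6 of 21 arrays. That percentile, 6.17 to 7.30, lies above the median tested probe set of every array. In the same order these genes were at least 2.01, 3.62, 2.66 and 3.13 log2 units above the background median.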

Other observations

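Among the marker lists not described above, all 3 Y-linked genes were lower in NPE tumors (median -1.74 on the log2 scale), with none at an unadjusted p under 0.05 in limma. All 3 also had means below the 95th percentile of the background probes. With their mean as a covariate the log2 fold change of Rab27a was 0.47 (adjusted p = 0.714). Of the adult muscle fibre markers 9 of 10 were higher in NPE tumors (median 0.88 on the log2 scale), and of the embryonic myogenic markers 8 of 10 were lower, with a median of -0.39. None of these 20 passed an adjusted p of 0.05. Mcoln1 fell where neutrophil markers were high (r = -0.62, adjusted permutation p = 0.033, and rho = -0.53, adjusted permutation p = 0.0994, n = 21), and the r was -0.43 without NPE tumor 3 and PE tumor 7. For Cd63 and neutrophil markers rho was 0.72 (adjusted permutation p = 0.022) and r was 0.44 (adjusted permutation p = 0.259), or 0.68 without NPE tumor 3 and PE tumor 7. All 6 neutrophil markers had means below the 95th percentile of the background probes. For Tfeb and macrophage markers rho was -0.66 (adjusted permutation p = 0.0458) and r was -0.42 (adjusted permutation p = 0.267).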
